A study of Mus musculus with 15 samples.

Results

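The genes described here are those of the classical cadherins and of the epithelial-mesenchymal transition (EMT): the cadherins Cdh1, Cdh2 and Cdh3, the surface protein Epcam, the filament protein Vim, and the transcription factors Snai1, Snai2, Zeb1, Zeb2 and Twist1. They were chosen by gene symbol, and their probes were found through RefSeq accessions. They make up 10 of the 21364 genes with a named probe on the array, and all 10 passed the filter on dim probes and were among the 14437 genes tested. Total RNA of mouse embryonic stem cells was hybridised to single-colour Agilent microarrays, 3 arrays for each of 5 groups. The first group was wild-type cells and the second was Nat1-null cells (here null cells), in which the gene that the labels call Nat1, a translation factor gene now named Eif4g2, is lost. The other 3 groups were null cells that also carry a doxycycline (Dox) inducible transgene. They were tet-Map3k3 cells grown without Dox, the same cells grown with Dox, and tet-EGFP cells grown with Dox as the transgene control. All 4 groups other than wild-type thus lack Nat1, and Map3k3 is a kinase that acts upstream of MAP kinases. The labels give standard stem cell medium on gelatin for all groups, and state neither a Dox dose or time, nor how many clones a line comprises, nor whether the arrays of a group come from separate cultures. P-values therefore measure the spread between these samples, which may be technical.

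Cadherins are transmembrane proteins that hold neighbouring cells together, and their cytoplasmic tails bind catenins that link them to the actin skeleton. In an EMT, epithelial cells lose Cdh1 (E-cadherin) and Epcam and gain Cdh2 (N-cadherin) and Vim, and the factors of the Snai, Zeb and Twist families are known to repress Cdh1 through E-box motifs or to promote the mesenchymal programme. Mouse embryonic stem cells express Cdh1 strongly and need it for their compact colonies, and the exchange of Cdh1 for Cdh2 is a known feature of their differentiation towards mesoderm.

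The E-box CACCTG, which Snai and Zeb factors are known to bind, was searched on both strands (so also as CAGGTG) in the 250 bases before the transcription start. Promoters of 5 of the 10 genes were in the RefSeq table of mouse build GRCm38.p6. The following 3 are shown because they hold the motif in an epithelial adhesion gene (Epcam), hold it in a factor gene that fell in null cells (Snai1), or lack it in the mesenchymal filament gene (Vim). Matches are in capitals, the sequences run 5′ to 3′ on the plus strand, and each ends at the base before the start.
Epcam, chr17:87635729-87635978: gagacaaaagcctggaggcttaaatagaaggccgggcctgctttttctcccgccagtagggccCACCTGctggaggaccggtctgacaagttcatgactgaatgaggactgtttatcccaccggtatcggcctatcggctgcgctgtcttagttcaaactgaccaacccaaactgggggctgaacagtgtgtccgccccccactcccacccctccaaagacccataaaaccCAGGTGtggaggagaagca
Snai1, chr2:167537945-167538194: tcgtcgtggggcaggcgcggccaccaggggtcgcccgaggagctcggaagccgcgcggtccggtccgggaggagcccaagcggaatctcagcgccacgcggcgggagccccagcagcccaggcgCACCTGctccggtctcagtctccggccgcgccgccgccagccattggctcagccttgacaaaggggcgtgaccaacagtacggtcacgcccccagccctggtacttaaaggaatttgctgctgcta
Vim, chr2:13574061-13574310: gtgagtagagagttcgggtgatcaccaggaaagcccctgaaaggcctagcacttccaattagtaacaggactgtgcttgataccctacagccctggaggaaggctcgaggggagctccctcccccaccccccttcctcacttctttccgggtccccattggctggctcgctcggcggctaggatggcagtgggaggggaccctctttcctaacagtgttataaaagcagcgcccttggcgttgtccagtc
Epcam held 2 matches, with first bases 187 and 19 bases before the start, and Snai1 held 1, at 126 bases before the start. Of the 32851 promoters in the table, 17.2% held at least 1 match and 2.06% held at least 2. The promoters of Twist1 and Zeb2 in the table held none in this window. Those of Cdh1, Cdh2 and Cdh3 were not in the table and were not searched. A match is a string of letters and not a measured binding site.

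Values are log2 signals minus the 75th percentile of the same array, a scale on which each probe can be compared across arrays but not with another probe. The 75th percentile itself lay between 494 and 614 signal units, and the share of probes with signal well above background ranged from 42.7 to 53.9%. Array 2 of Map3k3 with Dox had the lowest share, and there the weakest signal that counted as above background lay at -3.26, against -4.74 to -3.84 on the other 14 arrays. The Eif4g2 probe read 4.14, 4.40 and 4.39 in wild-type cells and 1.36 to 1.86 on the 12 arrays of null cells, lower but still above background on each. The labels call these cells Nat1-null, and the link of that name to Eif4g2 was not taken from them. The place of the probe in the gene was not known here. The Map3k3 probe was 0.18 higher with than without Dox (limma, adjusted p = 0.236) and 0.27 higher than in EGFP cells (adjusted p = 0.0872), neither called, and whether it can detect the transgene was not known. Stem cell markers (Pou5f1, Sox2, Nanog, Zfp42, Dppa5a) were above background in all groups, with summed levels (log2) of 9.03 to 9.13 in wild-type, 9.79 to 9.84 in null, 9.68 to 9.78 without Dox, 9.40 to 9.49 with Dox and 9.71 to 9.78 in EGFP cells. In bulk RNA, fewer cells of a type and less RNA per cell cannot be told apart.

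All 3 classical cadherins were lower in null cells than in wild-type cells, and Cdh2 by far the most. The exchange of Cdh1 for Cdh2 that the EMT describes was not seen: both fell. Cdh1, the epithelial cadherin (probe A_51_P137336), read 4.81, 4.90 and 4.78 in wild-type cells and 3.82, 3.30 and 3.93 in null cells. Every null array was below every wild-type array, and Cdh1 fell 2.21-fold, a log2 change of -1.15 (SE 0.18, limma adjusted p = 0.000133). Cdh2, the neural and mesenchymal cadherin (probe A_55_P2029711), read 1.38, 1.55 and 1.56 in wild-type cells and -3.89, -3.26 and -3.46 in null cells. The groups were far apart, with all null arrays near the background limit of their array but above it, and Cdh2 fell 32.7-fold (log2 -5.03, SE 0.55, adjusted p = 7.27e-06). A second probe for Cdh2 (A_55_P2000133) read 0.84, 0.96 and 0.81 in wild-type cells and -3.49, -2.72 and -3.53 in null cells, a 17.3-fold fall. Cdh3, placental cadherin, whose gene lies next to Cdh1 on chromosome 8, read 2.12, 2.09 and 1.93 in wild-type cells and -0.04, -0.93 and 0.04 in null cells. It fell 5.13-fold without overlap (log2 -2.36, SE 0.29, adjusted p = 1.67e-05). The gap between Cdh2 and Cdh1 on the same array, which has meaning only relative to other arrays, was -3.34 ± 0.11 (SD, n = 3) in wild-type and -7.22 ± 0.59 in null cells.

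**Figure D1:**
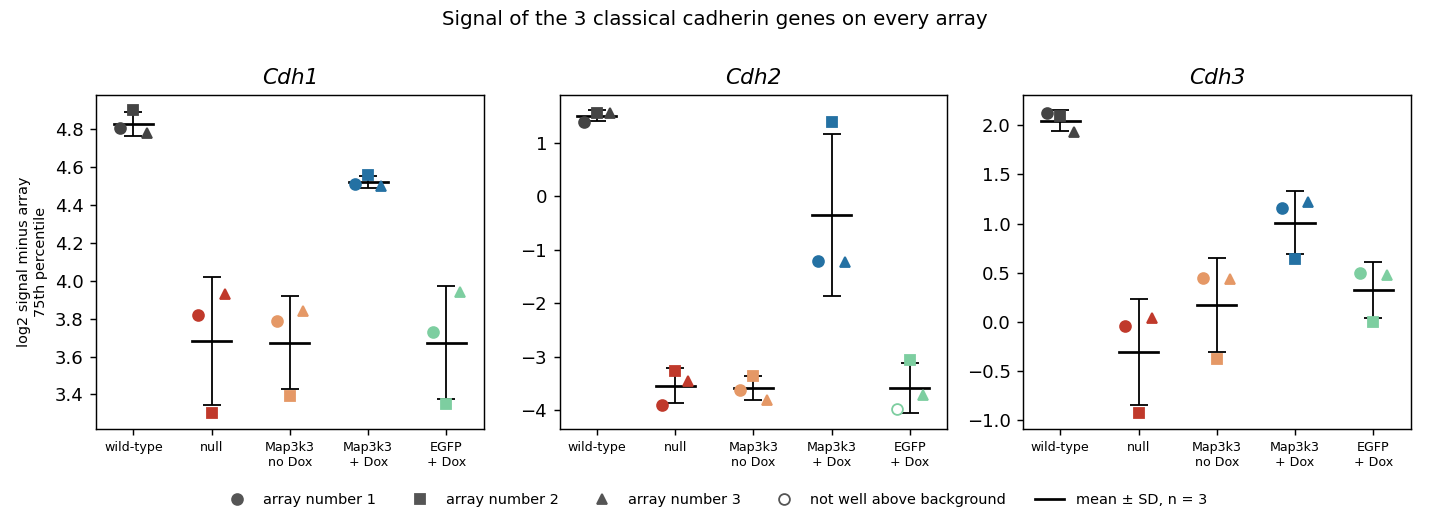
Log2 signal minus the array's 75th percentile (vertical axis, a separate scale in each panel) of Cdh1, Cdh2 and Cdh3 on each of the 15 arrays, by group, with marker shape for the array number, open markers for arrays not well above background, and the mean ± SD of 3 arrays. The wild-type mean is highest in every panel. For Cdh2 the array of Map3k3 with Dox at 1.39 reaches the lowest wild-type array and stands apart from the other 2 of its group, at -1.22 and -1.23.

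Of the 5 transcription factor genes, 3 also fell in null cells and none rose. Snai1, a repressor of Cdh1 known from gastrulation, read 0.49, 0.33 and 0.33 in wild-type cells and -1.40, -1.50 and -1.61 in null cells. It fell 3.69-fold (log2 -1.88, SE 0.11, adjusted p = 3.77e-08), with a spread within each group that was small beside the gap. Snai2, its close relative, read -2.42, -2.43 and -2.50 in wild-type cells and was not well above background on any null array, so its fold is a bound: it fell at least 2.86-fold (adjusted p = 7.36e-05). Zeb2, a zinc finger homeobox repressor, read -2.67, -2.18 and -2.30 in wild-type cells, was likewise not well above background on any null array, and fell at least 3.05-fold (adjusted p = 0.000275). Both bounds set each null array at the higher of its own signal and the weakest signal above background there. A second Zeb2 probe was not well above background on any of the 15 arrays, with a wild-type mean of -6.90. It showed neither a fall nor a rise, so all Zeb2 values here rest on 1 probe. Zeb1, the paralog of Zeb2, did not move with it. Its null arrays read -0.93, 0.40 and -1.69 and spanned the wild-type arrays, at -1.20, -1.10 and -0.94, a difference of 0.34 (SE 0.55, adjusted p = 0.614). For Twist1, a basic helix-loop-helix factor of mesoderm, the difference was 0.07 (SE 0.27, adjusted p = 0.840), with 2 of 3 null arrays above background.

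Vim, the intermediate filament of mesenchymal cells, and Epcam, an epithelial adhesion protein, were not called between null and wild-type cells. The Vim signal was 4.32, 4.45 and 4.44 in wild-type cells and 3.15, 4.55 and 2.35 in null cells. Array 2 of the null cells lay above all wild-type arrays while the other 2 lay below them, which left a difference of -1.05 (SE 0.64, adjusted p = 0.171). Without null array 2 the difference was -1.65 and was called (adjusted p = 0.0402). Epcam read 2.29, 2.46 and 2.24 in wild-type cells and 1.98, 1.12 and 2.15 in null cells. The groups did not overlap, but array 2 was again apart, and the difference was -0.58 (SE 0.31, adjusted p = 0.119).

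In all, 6 of the 10 genes were called between null and wild-type cells, all 6 lower, where 37.9% of all tested genes were called, 17.3% higher and 20.5% lower. Of these, Snai2 and Zeb2 passed the filter on dim probes only through the wild-type arrays. That they were lower in null cells is therefore partly set by the filter. Null and wild-type arrays were fully separated for 7 of the 10 genes, against 71.9% of all genes. The median change of the 10 was -1.51, beside 0.07 over all genes. All 6 arrays lay on 1 slide, wild-type in row 1 and null in row 2. Row and genotype therefore cannot be told apart within it. With row as a term in a fit to all 15 arrays the 6 genes were still called. Only Map3k3 and EGFP cells with Dox have arrays in both rows. The row term rests on them and cannot test a row effect between the wild-type and null arrays. When the 75th percentile was taken over probes above background on all arrays, the median of all genes moved by -0.144. The split over all called genes then went from 2502 higher and 2964 lower to 1819 and 3487, with the same 6 of the 10 genes called. Relative to the median of all genes, Cdh1 was at -1.22, Cdh2 at -5.10, Cdh3 at -2.43 and Snai1 at -1.96. These values are the same under either scaling by construction, because the scaling shifts every gene by the same amount.

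**Figure D2:**
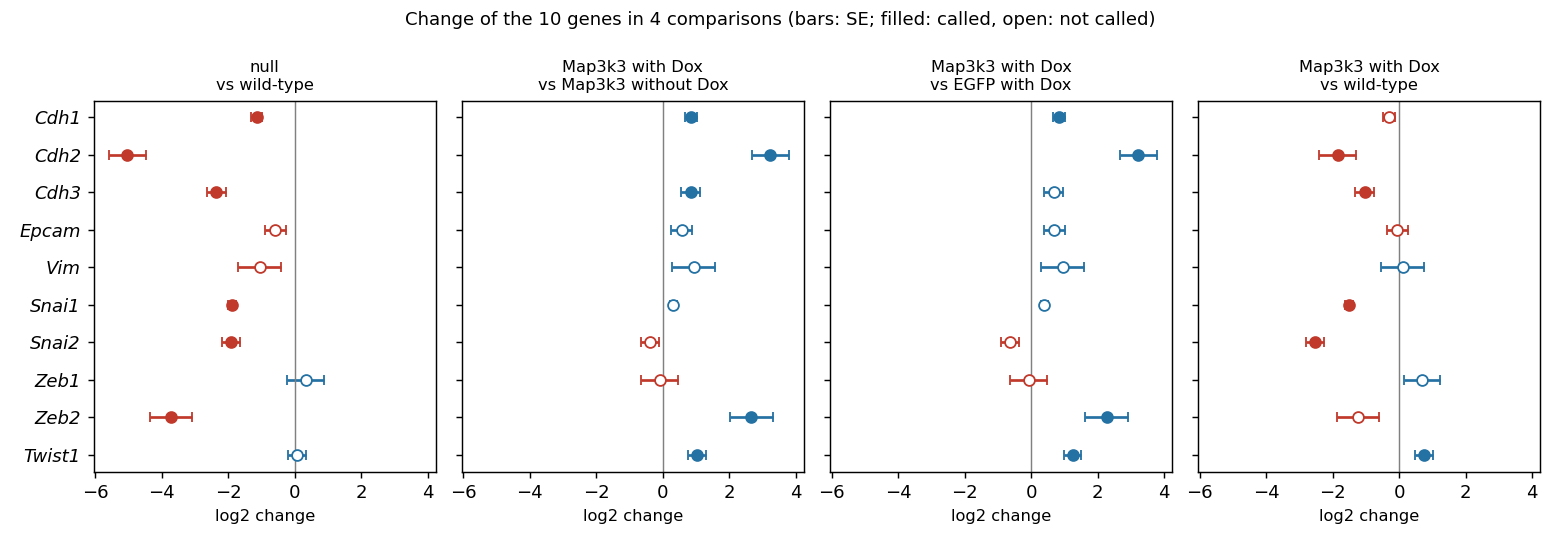
Log2 change (horizontal axis) of the 10 genes in the comparisons of null with wild-type cells and of Map3k3 cells with Dox with Map3k3 cells without Dox, with EGFP cells and with wild-type cells. Bars are SE, and filled points are called genes (adjusted p under 0.05 and at least 1.5-fold). Cdh2 has the largest change in the first 3 panels, at -5.03, 3.23 and 3.23.

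With Dox, the Map3k3 cells had higher signal of all 3 cadherins than the same cells without Dox, and of Zeb2 and Twist1. Cdh1 and Cdh2 again moved the same way. The Cdh1 signal was 3.79, 3.39 and 3.84 without Dox and 4.51, 4.56 and 4.50 with Dox. The 3 arrays with Dox lay within 0.06 of each other and above all arrays without it, and Cdh1 rose 1.80-fold (log2 0.85, SE 0.18, adjusted p = 0.00272). The Cdh2 signal was -3.61, -3.35 and -3.80 without Dox and -1.22, 1.39 and -1.23 with Dox. It rose 9.40-fold (log2 3.23, SE 0.55, adjusted p = 0.000678), but array 2 carried much of the mean, and without that array the rise was 5.13-fold (adjusted p = 3.86e-05). The second Cdh2 probe set the same array apart, at -1.63, 0.86 and -1.72 with Dox. Cdh3 read 0.45, -0.38 and 0.44 without Dox and 1.16, 0.64 and 1.22 with Dox, and rose 1.78-fold (log2 0.83, SE 0.29, adjusted p = 0.0355). This was the weakest of the calls: it was lost on leaving out array 2 of the cells without Dox (adjusted p = 0.136), and on leaving out arrays 1 (0.0992) or 3 (0.107) of the cells with Dox.

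Among the transcription factor genes, Zeb2 was not well above background on any array without Dox. With Dox it read -3.89, -1.82 and -5.17, and arrays 1 and 2 were above background while array 3 was not. Zeb2 rose at least 1.92-fold (fitted log2 2.67, SE 0.64, adjusted p = 0.00578), and the fitted value was 1.77 without array 2 and 3.44 without array 3. Twist1 read -4.42, -3.88 and -3.99 without Dox and -3.20, -2.62 and -3.41 with Dox. Every array with Dox was above every array without it, a 2.03-fold rise (log2 1.02, SE 0.27, adjusted p = 0.0105). Snai1 was 0.32 higher with Dox (SE 0.11, adjusted p = 0.0350), under the fold minimum of 1.5, and its groups overlapped, at -1.24, -1.65 and -1.44 without and -1.10, -1.0 and -1.28 with Dox. Snai2 was above background on 1 of the 6 arrays, so no fold is given. The difference for Zeb1 was -0.09 (SE 0.55, adjusted p = 0.910).

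**Figure D3:**
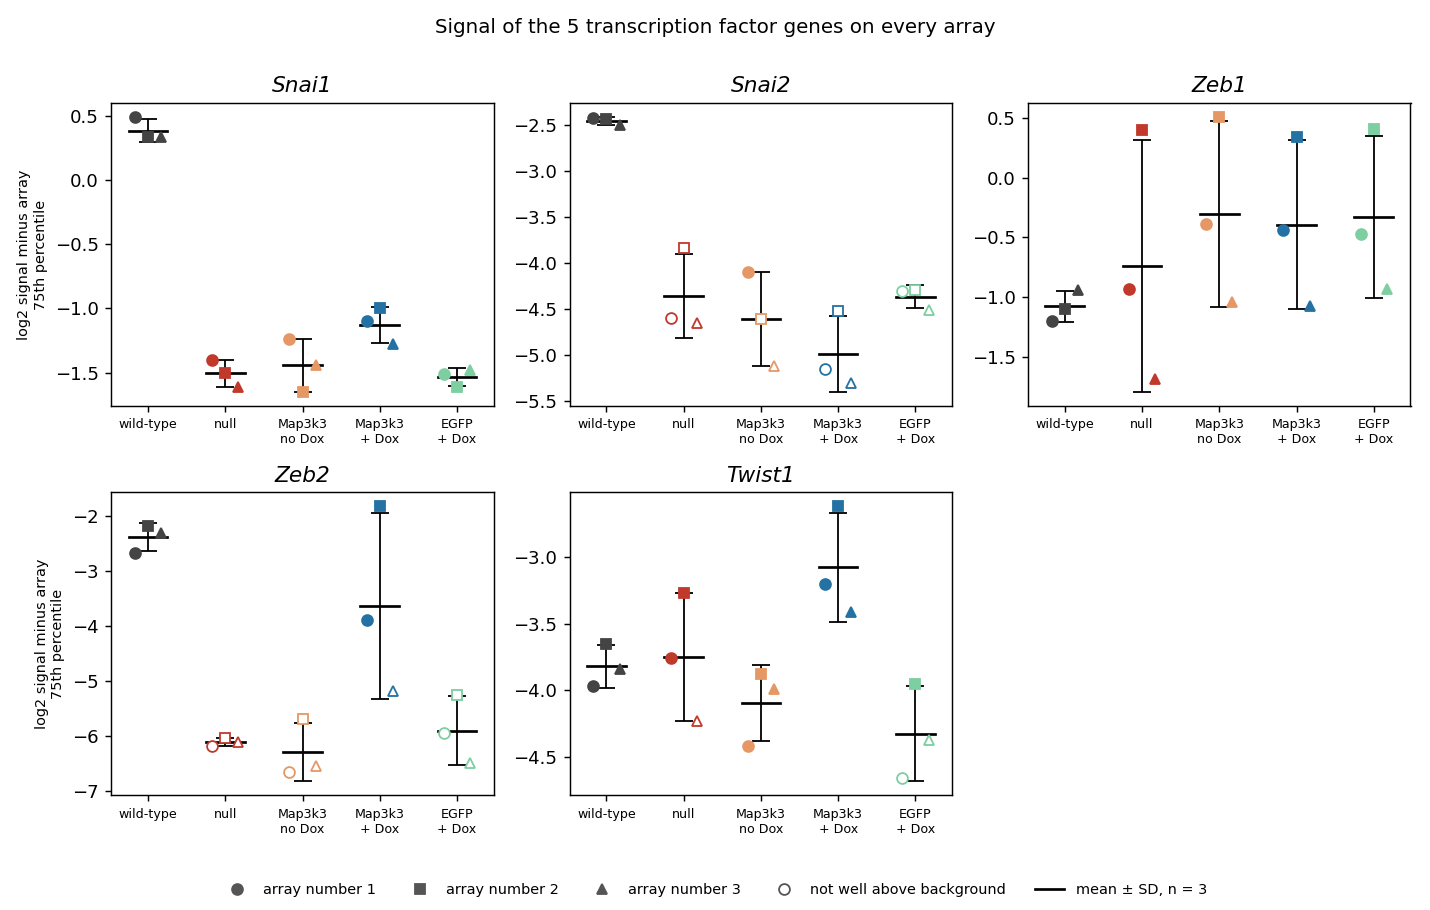
Log2 signal minus the array's 75th percentile (vertical axis, a separate scale in each panel) of Snai1, Snai2, Zeb1, Zeb2 and Twist1 on each of the 15 arrays, by group, with marker shape for the array number, open markers for arrays not well above background, and the mean ± SD of 3 arrays. The open markers show that Snai2 was measured on the 3 wild-type arrays and 1 other, and Zeb2 on the 3 wild-type arrays and on 2 arrays of Map3k3 with Dox.

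Epcam and Vim were higher on every array with Dox than on the array of the same number without Dox, but neither was called. Epcam read 2.02, 1.14 and 1.98 without Dox and 2.36, 2.09 and 2.38 with Dox, and differed by 0.57 (SE 0.31, adjusted p = 0.165) without overlap of the groups. Vim read 3.43, 4.42 and 2.90 without Dox and 4.43, 5.56 and 3.54 with Dox, and differed by 0.92 (SE 0.64, adjusted p = 0.275). Its groups overlapped, and array 2 was highest in each. With the array number as a block Vim was called (adjusted p = 0.0394, or 0.000546 in the 12 arrays of null cells alone), and the differences of equal numbers were 0.99, 1.14 and 0.63.

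Together 5 of the 10 genes rose with Dox and none fell, where 17.9% of all tested genes were called, 12.3% higher and 5.59% lower. The groups did not overlap for 6 of the 10, against 50.1% of all genes, and the median change was 0.84, beside -0.07 over all genes. All 6 arrays lay on slide 2, with arrays 2 and 3 with Dox in row 2 and the others in row 1. Within row 1, which holds 1 array with Dox and 3 without, the differences were 0.84 for Cdh1, 2.37 for Cdh2, 0.99 for Cdh3, 2.41 for Zeb2 and 0.90 for Twist1. With row as a term, Cdh1 and Cdh2 were called and Cdh3 (adjusted p = 0.0574), Zeb2 (0.0514) and Twist1 (0.0612) were not.

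Set against EGFP cells with Dox, which controls for Dox and for a transgene, the Map3k3 cells with Dox had higher signal of Cdh1, Cdh2, Zeb2 and Twist1. The arrays with Map3k3 are the same in both comparisons, so the values of the 2 comparisons are not independent. The Cdh1 signal was 3.73, 3.35 and 3.94 in EGFP cells, below all Map3k3 arrays with Dox, and Cdh1 was 1.80-fold higher with Map3k3 (log2 0.85, SE 0.18, adjusted p = 0.00257). The Cdh2 signal was -3.98, -3.06 and -3.71 in EGFP cells, above background on 2 of the 3 arrays, and Cdh2 was 9.38-fold higher with Map3k3 (log2 3.23, SE 0.55, adjusted p = 0.000638). With the dim EGFP array set at its background limit Cdh2 was at least 9.09-fold higher, and without array 2 of the Map3k3 cells it was 5.12-fold higher. Cdh3 read 0.50, -0.00 and 0.48 in EGFP cells, below all Map3k3 arrays, but the difference of 0.68 (SE 0.29, adjusted p = 0.0748) was not called. It was called with the array number as a block (adjusted p = 0.00876) and without array 2 of the Map3k3 cells (0.0469).

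Twist1 read -4.66, -3.95 and -4.37 in EGFP cells, above background on array 2 only. It was at least 1.97-fold higher with Map3k3 when the 2 dim EGFP arrays were set at their background limit (fitted log2 1.25, SE 0.27, adjusted p = 0.00311). Zeb2 was not well above background on any EGFP array and was at least 1.40-fold higher with Map3k3 (fitted log2 2.27, SE 0.64, adjusted p = 0.0134). That call was lost without array 3 of the EGFP cells (adjusted p = 0.0516), and the fitted value was 1.37 without array 2 and 3.04 without array 3 of the Map3k3 cells. Snai1 was 0.40 higher (SE 0.11, adjusted p = 0.0107), under the fold minimum, and Zeb1 differed by -0.07 (SE 0.55, adjusted p = 0.935). Epcam was at 1.63, 1.07 and 2.03 in EGFP cells and 0.70 higher with Map3k3 (SE 0.31, adjusted p = 0.0880), called with the array number as a block (0.0233) and without array 3 of the EGFP cells (0.0457). Vim was at 3.38, 4.52 and 2.78 in EGFP cells and 0.95 higher with Map3k3 (SE 0.64, adjusted p = 0.260), called with the block (0.0342). Snai2 was above background on none of the 6 arrays, and its difference of -0.62 (adjusted p = 0.0904), called with the block (0.0427) and without array 2 of the Map3k3 cells (0.0326), lies between signals that were both dim.

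Of the 10 genes 4 were called against EGFP cells, all higher with Map3k3, where 18.1% of all tested genes were called, 12.4% higher and 5.67% lower. With the array number as a block the count was 8, with Snai2 lower and the others higher. In the 12 arrays of null cells alone the count with the block was 7, all higher. Over all 14437 genes these 2 fits called 2808 and 2806. The groups did not overlap for 8 of the 10 genes, against 49.3% of all genes. Arrays 1 and 2 of the EGFP cells lay on slide 2 and array 3 on slide 1. Within slide row 2, with 2 arrays in each group, the differences were 0.99 for Cdh1, 3.60 for Cdh2, 2.11 for Zeb2 and 1.29 for Twist1.

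Map3k3 cells with Dox still differed from wild-type cells in 5 of the 10 genes. The difference in Cdh1 was -0.31 (SE 0.18, adjusted p = 0.154), not called, although all 3 arrays with Dox lay below all wild-type arrays. Cdh2 was 3.60-fold lower (log2 -1.85, SE 0.55, adjusted p = 0.0112). Its array 2, at 1.39, reached the lowest wild-type array, at 1.38. Without that array Cdh2 was 6.59-fold lower, and the call was lost without array 1 (adjusted p = 0.0535) or array 3 (0.0535). Cdh3 was 2.06-fold lower (log2 -1.04, SE 0.29, adjusted p = 0.00695). On the log2 scale, with the null mean at 0% and the wild-type mean at 100%, the arrays with Dox lay at 73.2 ± 2.5% (SD, n = 3) for Cdh1, 63.3 ± 30.0% for Cdh2 and 55.8 ± 13.5% for Cdh3.

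Snai1 and Snai2 remained lower than in wild-type cells. Snai1 was 2.84-fold lower (log2 -1.51, SE 0.11, adjusted p = 2.21e-07), with its arrays at 20.0 ± 7.6% of the distance from null to wild-type. Snai2 was above background on no array with Dox and was at least 2.74-fold lower (adjusted p = 6.79e-06). Twist1 was 1.67-fold higher than in wild-type cells (log2 0.74, SE 0.27, adjusted p = 0.0310), the only one of the 10 genes called higher there. Its call was lost without wild-type array 1 (adjusted p = 0.0897), wild-type array 3 (0.0702) or array 2 with Dox (0.130). Zeb2 differed by -1.24 (SE 0.64, adjusted p = 0.109), and its arrays with Dox ranged from -5.17 to -1.82. Without array 2 with Dox Zeb2 was lower by -2.14 and called (adjusted p = 0.00111). Epcam (-0.05, adjusted p = 0.889), Vim (0.11, 0.895) and Zeb1 (0.68, 0.302) were not called.

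Against 38.3% of all genes called in that comparison, 18.4% higher and 19.9% lower, the set had 1 gene higher and 4 lower. Among the 4, Snai2 passed the filter on dim probes only through the wild-type arrays. The groups of this comparison did not overlap for 5 of the 10 genes, where 70.7% of all genes had no overlap. Both slides entered it, with wild-type on slide 1 and Map3k3 with Dox on slide 2. With slide as a term Snai1 and Snai2 were called and Cdh2 (adjusted p = 0.146), Cdh3 (0.257) and Twist1 (0.326) were not. The only slide 1 array that shares a group with slide 2 is EGFP array 3, so that fit leans on it.

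None of the 10 genes was called between null cells and either transgenic control, EGFP cells with Dox or Map3k3 cells without Dox. In EGFP cells with Dox against null cells 0 of 10 passed limma with Benjamini-Hochberg adjustment, where 0.00693% of all genes did, and 1 of 10 had an unadjusted p under 0.05, against 7.27% of all genes. That gene was Cdh3, with a difference of 0.63 (SE 0.29, unadjusted p = 0.0468, adjusted p = 0.680). In Map3k3 cells without Dox against null cells 0 of 10 passed, where 0% of all genes did, and 0 of 10 had an unadjusted p under 0.05, against 14.6% of all genes. The differences for Cdh1 were -0.01 in both comparisons and those for Cdh2 were -0.05 in both, each with the SE given for these genes. The groups overlapped for all 10 genes in both comparisons, where 11.6% of all genes did not overlap in the first and 21.1% in the second. For Cdh3 the difference without Dox was 0.48 (SE 0.29, adjusted p = 0.464). A p that misses the threshold does not show that the lines are alike.

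The array numbers of the 4 null-cell groups went with several of these genes. Number 2 was the highest of its group in all 4 groups for Cdh2, Vim, Zeb1, Zeb2 and Twist1, which are 5 of the 10 genes, where 14.8% of all genes showed that pattern. For Zeb2 the ranking in null, EGFP and Map3k3 cells without Dox was among signals not well above background. The second Cdh2 probe did not share the pattern, at -3.51, -3.67 and -3.65 without Dox and -3.23, -3.53 and -3.59 in EGFP cells. Number 2 was the lowest in all 4 groups for Cdh3 and Epcam, 2 of the 10 genes, against 15.6% of all genes. For Vim number 2 exceeded the mean of the other 2 arrays by 1.25 to 1.80, and for Zeb1 by 1.1 to 1.71. For Cdh3 it was lower by 0.49 to 0.93 and for Epcam by 0.28 to 0.94. Cdh1 was lowest on number 2 in 3 groups and highest on it in Map3k3 cells with Dox. In wild-type cells number 2 differed from the other arrays by 0.07 for Vim, -0.02 for Zeb1, 0.07 for Cdh3 and 0.20 for Epcam. The number 2 arrays of null cells lay on both slides and in both rows. The pattern was noticed after the values were seen, so it has no test of its own. Without number 2 of every group, an alternative chosen after seeing the data, the number of the 10 genes called was 7 for null against wild-type cells, 5 with against without Dox, 5 against EGFP cells and 6 for Map3k3 cells with Dox against wild-type cells, beside 6, 5, 4 and 5 with all arrays. Over all 14437 genes the counts were then 5563, 2561, 2605 and 5657, beside 5466, 2579, 2609 and 5528 with all arrays.

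**Figure D4:**
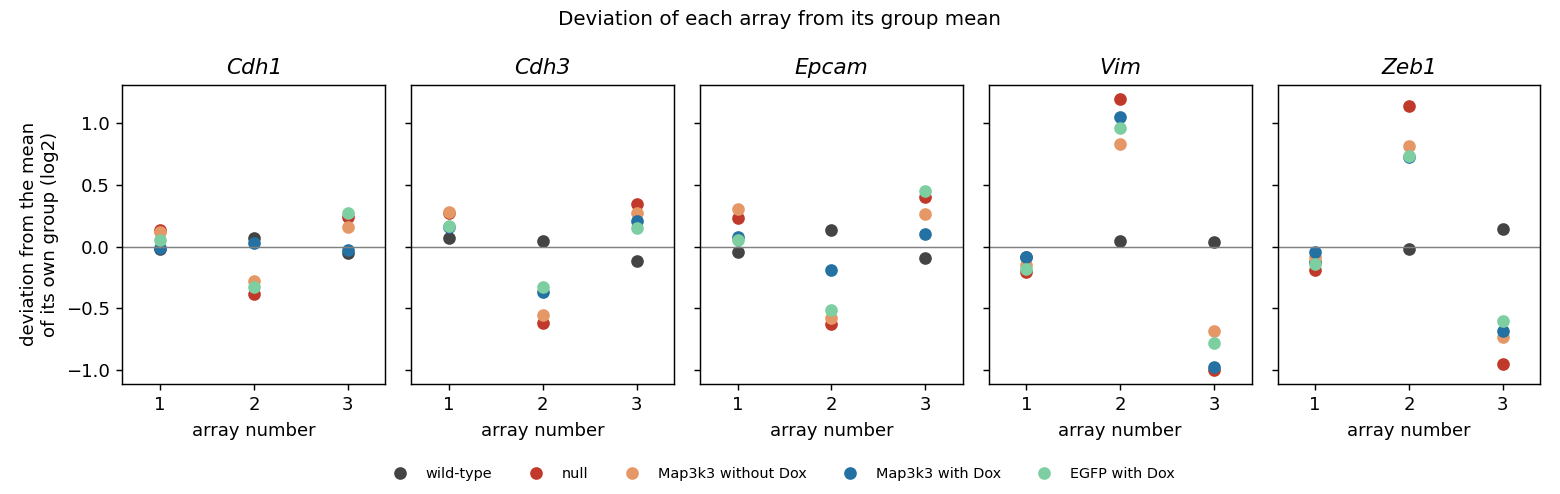
Deviation of each array from the mean of its group (vertical axis, log2) against its array number (horizontal axis) for Cdh1, Cdh3, Epcam, Vim and Zeb1, with colour for the 5 groups. In the 4 groups of null cells, array 2 lies high for Vim and Zeb1 and low for Cdh3 and Epcam, and the wild-type arrays lie near 0.

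Shares of other genes of the pathway that were called are read beside those of all genes, 17.3% higher and 20.5% lower between null and wild-type cells, and 12.3% higher and 5.59% lower with against without Dox. Of 13 listed catenins and junction partners 12 were tested. Between null and wild-type cells 3 rose and 2 fell (median 0.32), among them Nectin1 (3.10-fold higher) and Nectin2 (2.06-fold higher), immunoglobulin-type adhesion proteins, and Nectin3 (1.63-fold lower). Ctnnd2, a neural catenin, also fell, but was above background on 1 of 3 null arrays and was at least 1.48-fold lower with the dim arrays at their limit. These 5 of 12 are near the 37.9% of all genes called. With against without Dox 0 of the 12 were called by limma (median 0.12), while 5 had an unadjusted p under 0.05. Against EGFP cells 1 rose, Nectin2, named after its value was seen. Among 8 tested of 12 other cadherins, 1 rose and 4 fell in null cells. Cdh4 (R-cadherin) rose 3.24-fold, while Cdh10 fell at least 1.70-fold and Cdh13, a cadherin anchored by a lipid, at least 4.10-fold. With Dox 1 of these 8 rose, near the share of all genes. It was Cdh13, above background on 1 of 3 arrays without Dox and at least 9.66-fold higher with the dim arrays at their limit. Against EGFP cells 2 of the 8 rose.

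Genes of the epithelial side split in direction. Of the 13 epithelial regulators, all tested, 4 rose and 3 fell in null cells, and 4 rose and 0 fell with Dox. Against EGFP cells 4 rose and 1 fell (Grhl3, an epithelial transcription factor, named after its value was seen). The 7 of 13 called in null cells compare with 37.9% of all genes, and the 4 with Dox with 17.9%. Spint1 and Spint2, inhibitors of surface proteases, rose 3.12-fold and 1.70-fold in null cells, whereas the splicing factor Esrp1 fell 4.14-fold. The tight junction protein Cldn7 rose 2.97-fold with Dox. The simple epithelial keratins Krt7, Krt8, Krt18 and Krt19 all fell in null cells (Krt18 15.0-fold), and all 4 rose with Dox (Krt18 31.2-fold). Krt7, above background on 2 of 3 arrays in null cells and in cells without Dox, fell at least 6.90-fold and rose at least 45.8-fold with the dim arrays at their limit. Beside these, the summed level of 5 trophectoderm markers, of which Krt7 is one, was 0.77 to 0.84 in wild-type, -1.25 to -0.72 in null, -1.17 to -0.90 without Dox, 2.80 to 3.25 with Dox and -1.31 to -0.97 in EGFP cells. In wild-type cells and with Dox 4 of the 5 were above background on all 3 arrays. Cdx2, a defining trophectoderm factor, was among them in both groups, with means of -3.18 in wild-type cells and 0.82 with Dox. It was above background on no array of null cells, Map3k3 cells without Dox or EGFP cells. The part of such cells in the keratin, Epcam and cadherin values was not tested.

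Most of the tested mesenchymal effectors fell in null cells and most rose with Dox, the directions of both Cdh1 and Cdh2. Of 17 tested of 18, 12 fell and 0 rose in null cells (median -1.43), and 13 rose and 1 fell with Dox (median 1.47), where 20.5% of all genes were called lower in the first comparison and 12.3% higher in the second. Against EGFP cells 13 rose and 1 fell. Against wild-type cells, 8 of the 17 were called higher in Map3k3 cells with Dox and 6 lower, where 18.4% and 19.9% of all genes were. The fibrillar collagen gene Col1a2 fell at least 110-fold and smooth muscle actin Acta2 at least 99.9-fold in null cells. With against without Dox, Col1a2 was not called (limma adjusted p = 0.168) and Acta2 rose at least 1.43-fold, each above background on 1 of 3 arrays with Dox. With Dox the receptor kinase Axl rose 22.2-fold, and the matrix protease Mmp2, above background on 1 of 3 arrays with Dox, fell at least 1.59-fold with the dim arrays at their limit. Summed fibroblast and feeder markers, 5 of whose 8 genes are also in this list, were at 4.91 to 5.02 in wild-type cells, with 7 of 8 above background on all arrays and Postn on none. They were at 1.68 to 1.98 in null cells, with Col1a2 and Acta2 above background on no array, at 1.42 to 1.46 without Dox, at 1.53 to 2.46 with Dox and at 1.32 to 1.54 in EGFP cells. Other marker lists also differed between groups. Summed neural markers (Nes, Sox1, Pax6, Tubb3) were at 5.11 to 5.13 in wild-type cells, where all 4 were above background, and at 2.62 to 3.37 on the 12 arrays of the null-cell groups, where Pax6 was above background on none. Summed mesoderm markers (T, Mixl1, Mesp1, Tbx6) were at -0.09 to 0.02 in wild-type cells and at -1.58 to -0.69 on the arrays of the null-cell groups, with T above background on none of them. Between Map3k3 cells without and with Dox these 2 sums overlapped, but single markers, named after their values were seen, moved in opposite directions. Nes rose 3.57-fold with Dox (limma adjusted p = 0.000948), while the mean of Tubb3 was 2.83 without and 1.85 with Dox. Mesp1 was called higher (adjusted p = 0.0221), above background on 2 of 3 arrays with Dox and 0 without, while the mean of Tbx6 was -1.37 without and -1.74 with Dox. The neural sum was at 2.97 to 3.32 without and 2.71 to 3.34 with Dox, and the mesoderm sum at -1.53 to -0.83 and -1.30 to -0.69. Summed primitive endoderm markers were at -1.33 to -1.22 in wild-type, -2.75 to -2.31 in null, -2.65 to -2.16 without Dox, -0.55 to -0.30 with Dox and -2.68 to -2.44 in EGFP cells. Sox17 and Pdgfra were above background on no array of wild-type, null, EGFP or Map3k3 cells without Dox. The part of such cells in the levels of Cdh2, Snai2, Zeb2, Vim and the collagens was not tested.

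Other transcription factors of the EMT and the TGF-beta pathway, which induces it in many epithelia, were also called in both comparisons. Of 11 tested of 13 other factors, 1 rose and 6 fell in null cells (median -1.21), and 5 rose and 1 fell with Dox (median 0.84). Twist2, the paralog of Twist1, fell at least 8.68-fold and Sox9 at least 1.19-fold in null cells. With Dox Sox9 rose at least 12.6-fold, and Foxc1, above background on 1 of 3 arrays without Dox, at least 4.68-fold with the dim arrays at their limit, while Klf8 rose 2.22-fold in null cells and fell 1.70-fold with Dox. Of 13 genes of TGF-beta signalling, 1 rose and 6 fell in null cells (median -0.01), and 8 rose and 0 fell with Dox (median 0.80). The ligand genes Tgfb2 and Tgfb3 fell 9.72-fold and at least 2.69-fold in null cells, and Smad7, an inhibitor of the pathway, rose 5.15-fold. With Dox Tgfb3 rose at least 7.48-fold and the receptor gene Tgfbr2 7.32-fold. Of all genes, 17.3% were called higher and 20.5% lower in the first comparison, and 12.3% and 5.59% in the second, with medians of 0.07 and -0.07. Against EGFP cells 5 of the 11 factors rose and 1 fell, and 8 of the 13 TGF-beta genes rose and 0 fell. These lists were chosen with earlier results of these data known.

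**Figure D5:**
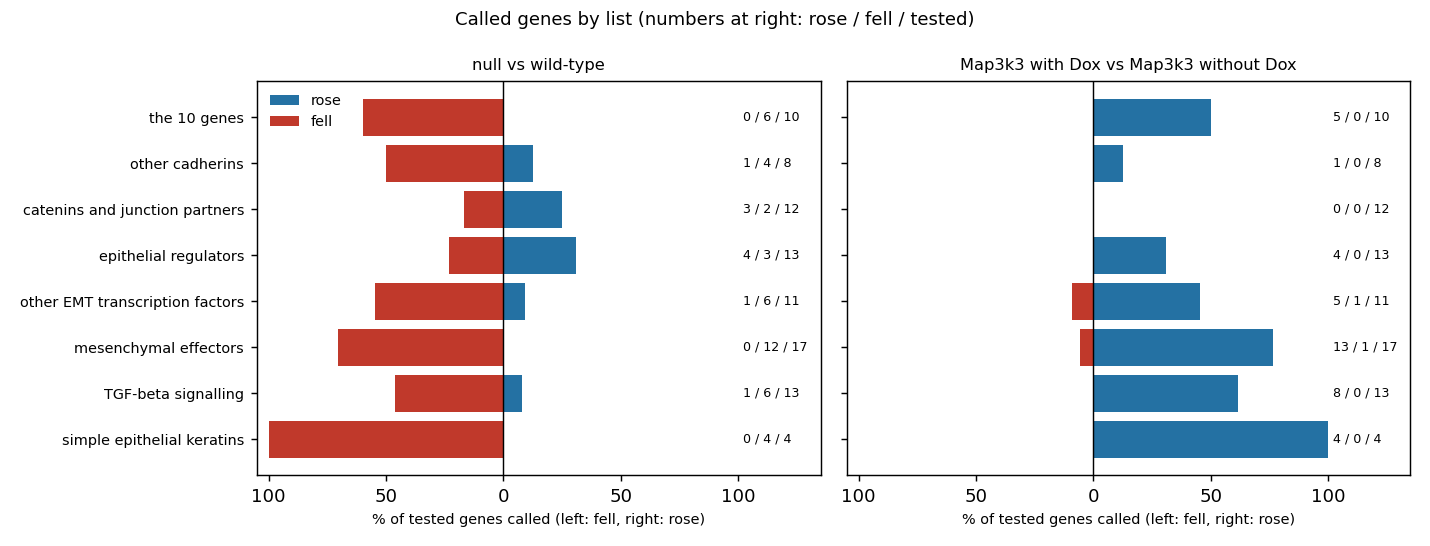
Percent of the tested genes of each list that rose (blue, to the right) or fell (red, to the left) between null and wild-type cells and between Map3k3 cells with and without Dox, with the counts of genes that rose, fell and were tested at the right. Of the 10 genes 6 fell in the first panel and 5 rose in the second, and the 4 keratin genes fell and then rose.

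Among the 14437 genes tested, those with the pattern most like a given gene were ranked by the root mean square difference over the 15 arrays after each gene was centred on its own mean. For Cdh1 these were Itgb5 (0.12), Vrk2 (0.12) and C1qtnf4 (0.13), beside a root mean square of 0.53 of Cdh1 itself. For Cdh2 they were Stmn4 (0.47), Lor (0.49) and Ankrd1 (0.50), beside 2.19, and for Cdh3 they were Tvp23a (0.24), Tspan2 (0.25) and Parp10 (0.26), beside 0.87. For Epcam they were Gramd1c (0.14), H6pd (0.14) and Sec63 (0.15), beside 0.46, and for Vim Snx25 (0.36), Glcci1 (0.41) and Dock4 (0.41), beside 0.85. None of the other 9 genes of the set was among the 3 nearest of any of these 5. The arrays share cell lines and slides, so likeness over them is a description.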

How the data were processed

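Gene expression was measured on 15 single-colour arrays. Per the file headers, the authors read the scans with Feature Extraction 11.5.1.1 (protocol GE1_1105_Oct12) and deposited processed green signals as background-corrected intensity, with flags for signal well above background. The authors' deposited value table is log2, per its agreement with these signals (correlation 1 on every array), and served as an alternative. Here each intensity was turned into log2, the spots of a probe were averaged without outlier spots, and the array's 75th percentile over 55681 probes was subtracted. No spot was saturated. RefSeq accessions gave symbols to 28325 probes. Probes had to exceed background clearly on every one of the 3 arrays in 1 or more groups, and the brightest of the 29778 kept stood for its gene. For genes kept only through wild-type arrays, in the set or the lists, a lower signal elsewhere is partly set by this filter. Of the 12 probes of the 10 genes 11 passed, the other being a second Zeb2 probe.

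One limma 3.58.1 model (R 4.3.3) with 5 group means, 10 residual degrees of freedom and two-sided moderated tests was fitted to 14437 genes. Called means a Benjamini-Hochberg adjusted p under 0.05 over these genes and at least 1.5-fold, and rose and fell are used of called genes. The members, gene lists, comparisons and naming rule (the 10 genes always, Eif4g2, Map3k3, up to 2 called genes each way per list, and the 3 genes most alike) were chosen with earlier results of these data known. Of the genes that the rule names, 2 are not reported here. Deviations of arrays from their group means correlated between equal numbers at 0.106 to 0.631 in the 4 comparisons among null cells, all above the threshold of 0.1. The numbers were therefore treated as pairing those arrays in the fits with the array number as a block. The main model has no term for the number, so calls, SE and adjusted p are unpaired unless the block is named. Numbers 1 and 3 also correlated with each other, at 0.0936 to 0.235, and number 2 with the others at -0.482 to -0.178. Array 1 of Map3k3 with Dox correlated more with EGFP array 3 (0.192) than with EGFP array 1 (0.106), so the pairing mainly sets number 2 apart. Against wild-type cells equal numbers correlated at -0.0287 to 0.0654, and the numbers do not pair those arrays. The model was tested on simulated data. Alternatives changed background correction, scaling, filters, probes, the fold minimum, blocks and arrays left out. The number of arrays limits the precision.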

Additional observations from a re-analysis of the deposited data

How the results depend on the processing

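No result reversed: of 1282 values of single genes under alternative settings, 1233 kept their call or lack of it, 27 lost a call and 22 gained one. For Map3k3 with against without Dox the count of called genes among the 10 went from 5 to 3 with only probes above background on all arrays or only the 2 groups compared, and to 2 with slide row as a block. Over all genes these counts were 2579 of 14437, then 1718 of 11845, 2347 and 2373, in that order. Against EGFP cells the count among the 10 went from 4 to 2 with normexp or with only probes above background on all arrays, and to 8 with the array number as a replicate block (7 in null cells alone). Over all genes these counts were 2609, then 1881, 1765 of 11845, 2808 and 2806. Against wild-type cells the count among the 10 went from 5 to 3 with only probes above background on all arrays, to 2 with slide and to 3 with slide row as a block. Over all genes these counts were 5528, then 4027 of 11845, 4423 and 5282. The filter to probes above background on all arrays leaves Snai2, Zeb2 and Twist1 untested, and the cause of the other moves was not tested. Without 1 array at a time the counts were 6 to 7 for null against wild-type cells, 4 to 5 with against without Dox, 4 to 6 against EGFP, 4 to 5 against wild-type cells, and 0 to 0 in the other 2 comparisons. In the comparisons with wild-type cells, which the numbers do not pair, the replicate block moved the counts from 6 to 7 and from 5 to 6, adding Vim (adjusted p = 0.0151) and Zeb2 (0.0479). Over all genes the block moved the counts from 5466 to 5602 and from 5528 to 5691. Beyond Vim, Zeb2 and the calls given beside the results, the block changed no call of the 10 genes. The normexp correction used median spot signals, chosen after seeing the data, and the planned version on mean signals was not run. Leaving out number 2 of every group, also chosen after seeing the data, gave counts of 7 for null against wild-type cells, 5 with against without Dox, 5 against EGFP and 6 against wild-type cells. The counts over all genes are given with the results above. Under normexp the Twist1 change with Dox was 0.47; the cause was not tested.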
